A study of Mus musculus with 7 samples.

Results

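The mucins and goblet cell genes examined here are *Muc1*, *Muc2*, *Muc4*, *Muc5ac*, *Muc5b*, *Muc16*, *Muc20*, *Spdef*, *Agr2* and *Tff2*, chosen by symbol and not by their values. Of these 10 genes, 9 have at least 1 array probe whose transcript carries the symbol, and all 9 were bright enough to be tested, among 20664 genes or transcripts tested in all. No probe of *Muc16* was named. RNA of nasal tissue, including the septum and the turbinates, was compared between female BALB/c mice that inhaled diesel exhaust particles (DEP) and control mice, on Agilent arrays that hybridise both RNAs together. DEP suspended in saline were nebulised at 100 µg/m3 for 1 h a day on 5 days a week, over 4 or 8 weeks, in mice labelled as 6 weeks of age, and the controls inhaled saline per the methods. There were 4 arrays for 4 weeks, on 1 slide, and 3 arrays for 8 weeks, on another. The number of mice behind an array and whether control RNA was pooled are not given in the sources used here, so the p-values measure the spread between these arrays, which may be technical. DEP RNA carried Cy5 and control RNA Cy3 on every array, so that at 1 exposure time dye and DEP cannot be told apart. A dye effect that is the same on every array cancels in the difference between exposure times, but there slide and time cannot be told apart.

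Mucins are large glycoproteins that form the protective gel of the airway surface or line the cell membrane. *Muc5ac* and *Muc5b* encode the main gel-forming mucins of the airways, *Muc5ac* mostly in goblet cells of the surface epithelium and *Muc5b* in submucosal glands and secretory cells, while *Muc2* is the gel-forming mucin best known from the intestine. *Muc1*, *Muc4*, *Muc16* and *Muc20* encode mucins anchored in the cell membrane. *Spdef* encodes a transcription factor of goblet cell differentiation, *Agr2* a disulfide isomerase of the endoplasmic reticulum needed for mucin folding, and *Tff2* a trefoil peptide secreted together with mucins. Exhaust particles carry polycyclic aromatic hydrocarbons, which bind the aryl hydrocarbon receptor (AhR), and goblet cells are known to increase in irritated airways.

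On the mouse genome *Muc2*, *Muc5ac* and *Muc5b* lie next to each other on chromosome 7, with 0 protein-coding genes between neighbours, and *Muc4* and *Muc20* are neighbours on chromosome 16. The 250 bases before the start of 7 of the 10 genes were read from RefSeq (GRCm38.p6). Below, 4 of them are shown because *Muc2* changed in opposite directions at the 2 exposure times, the neighbours *Muc4* and *Muc20* parted at 8 weeks, and *Spdef* is the regulator among the 10 genes. Capitals mark the letters of a TATA box (TATAAA), a GC box (GGGCGG) or the AhR-ARNT core (GCGTG), each searched on both strands.
Muc2 (chr7:141690090-141690339, plus strand): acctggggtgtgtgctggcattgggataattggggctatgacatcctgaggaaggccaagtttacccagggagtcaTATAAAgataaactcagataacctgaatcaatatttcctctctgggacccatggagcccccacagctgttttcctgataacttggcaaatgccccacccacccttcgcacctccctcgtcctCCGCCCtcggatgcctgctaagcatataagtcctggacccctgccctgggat
Muc4 (chr16:32735636-32735885, plus strand): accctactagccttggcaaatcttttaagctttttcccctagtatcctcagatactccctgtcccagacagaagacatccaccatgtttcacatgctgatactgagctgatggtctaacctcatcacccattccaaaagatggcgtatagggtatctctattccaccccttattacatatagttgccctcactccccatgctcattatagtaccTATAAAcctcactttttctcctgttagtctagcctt
Muc20 (chr16:32797436-32797685, minus strand): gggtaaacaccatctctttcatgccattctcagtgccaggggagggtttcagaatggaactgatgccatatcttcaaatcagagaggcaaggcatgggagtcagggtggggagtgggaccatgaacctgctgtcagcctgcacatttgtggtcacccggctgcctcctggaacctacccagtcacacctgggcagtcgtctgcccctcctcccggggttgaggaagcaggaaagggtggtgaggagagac
Spdef (chr17:27728952-27729201, minus strand): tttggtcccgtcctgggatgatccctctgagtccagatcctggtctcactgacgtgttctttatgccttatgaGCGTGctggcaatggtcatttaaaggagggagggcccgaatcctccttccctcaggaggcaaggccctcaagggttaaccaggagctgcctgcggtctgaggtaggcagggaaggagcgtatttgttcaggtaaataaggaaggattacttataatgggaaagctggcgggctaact

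The TATA box letters stood in the promoters of *Muc1*, *Muc2* and *Muc4*, against 12.4% of 32851 RefSeq promoters cut to the same 250 bases. The GC box was found in *Muc1* and *Muc2* (32.7% of all promoters), and the AhR-ARNT core in *Spdef* among the 7 (28.2% of all promoters). The AP-1 motif TGACTCA (4.46% of all promoters) and the STAT6 motif, TTC and GAA parted by any 4 bases (5.85%), had no match in the 7 windows. The SPDEF core GGAT, which is too short to be marked and stands in 74.1% of all promoters, was counted 4 times in *Muc2*, 2 times in *Muc4* and in *Agr2*, 5 times in *Spdef* itself and 1 time in *Muc16*, and was not found in *Muc1* or *Muc20*. No match of one marked motif overlapped another. These matches describe letters in a window and were not tied to any measured binding.

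After 4 weeks of DEP, the membrane mucin *Muc4* and the goblet cell mucin *Muc5ac* were each more than 2-fold above control, and *Muc2*, *Muc20* and *Muc1* rose less. In the same tissue *Tff2*, *Agr2* and *Spdef* were slightly below control. After 8 weeks *Muc5b* and *Tff2* were about 3-fold below control, *Muc2* and *Spdef* were lower, and *Muc20* was still higher. Each value below is a log2 ratio of DEP over control or a normalized log2 intensity of 1 channel, and tests are limma's moderated statistics with Benjamini-Hochberg adjustment over all probes tested, and an adjusted p up to 0.05 counts as changed. In bulk tissue, fewer cells of a type and less RNA per cell cannot be told apart.

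**Figure D1:**
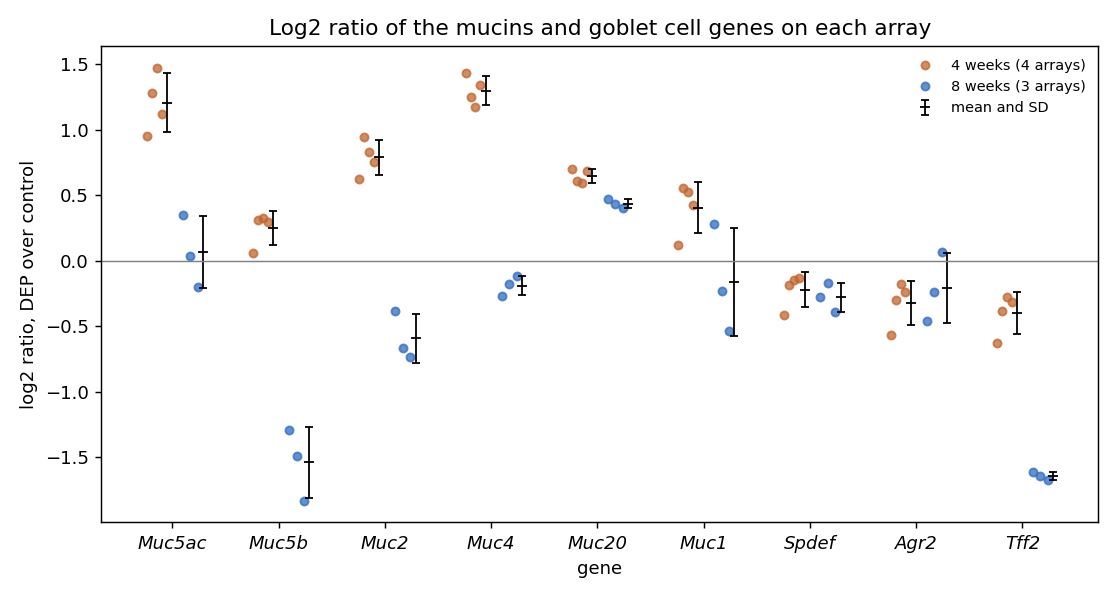
Log2 ratio of DEP over control for the 9 genes tested, with 1 point per array (4 arrays at 4 weeks, 3 at 8 weeks) and the mean with its SD beside them. *Muc4* and *Muc5ac* lie between 0.95 and 1.47 at 4 weeks, and *Muc5b* and *Tff2* between -1.83 and -1.30 at 8 weeks.

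Of the 9 genes, 5 rose at 4 weeks (*Muc4*, *Muc5ac*, *Muc2*, *Muc20*, *Muc1*), where 21.6% of all genes tested rose, and 3 fell (*Tff2*, *Agr2*, *Spdef*), where 16.5% of all fell. At the thresholds of the study's methods, an unadjusted p of at most 0.01 with at least a 2-fold change, *Muc4* and *Muc5ac* were higher at 4 weeks, which 0.934% of all genes were. Both names are on the study's own list of changed genes, which was chosen on these samples. The median log2 ratio of the 9 genes was 0.40 at 4 weeks, beside 0.00 over all genes tested.

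*Muc4* had log2 ratios of 1.43, 1.25, 1.17 and 1.34 on replicates 1 to 4 of 4 weeks. Its normalized log2 intensity was 10.21 to 10.45 for DEP and 9.02 to 9.08 for control. The 2 channels did not overlap, and the control values were close to each other. The mean log2 ratio was 1.30 ± 0.11 (SD, n = 4), a 2.46-fold rise (SE 0.06 on the log2 scale, limma adjusted p = 6.31e-06), which ranked 45 from the top of 20664. A second, dim *Muc4* probe gave 0.44, 0.42, 0.35 and 0.19, with a mean of 0.35 (limma adjusted p = 0.00258). Its control channel was not well above background on any 4-week array, which leaves a bound of at least 1.03-fold. The bound itself was not tested. Both probes were higher in DEP on all 4 arrays, and the dim probe cannot give the size. The mean of both probes was 0.82 (adjusted p = 2.24e-05).

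*Muc5ac* had log2 ratios of 0.95, 1.28, 1.47 and 1.12 at 4 weeks. Its intensity was 10.09 to 10.39 for DEP and 8.92 to 9.19 for control, without overlap. The mean was 1.20 ± 0.22 (SD, n = 4), a 2.30-fold rise (SE 0.11, limma adjusted p = 0.000153), which ranked 73 from the top. For its neighbour *Muc2* the ratios were 0.62, 0.94, 0.83 and 0.75. *Muc2* was 8.90 to 9.06 in DEP and 8.10 to 8.44 in control, again without overlap, and rose 1.73-fold (0.79 ± 0.13, SD, n = 4, SE 0.07, limma adjusted p = 0.000212). The third of these neighbours, *Muc5b*, moved less, with ratios of 0.06, 0.31, 0.33 and 0.30. Its mean of 0.25 ± 0.13 (SD, n = 4) had a limma adjusted p of 0.0606, and without replicate 1 the mean was 0.31 with an adjusted p of 0.0474. The alternatives gave adjusted p from 0.0143 to 0.527. The *Muc5b* spot was very bright, with raw medians of 92190 to 126534 over both channels at 4 weeks, and was not marked as saturated on any array.

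Of the other membrane mucins, *Muc20* was the most even, at 0.70, 0.61, 0.60 and 0.68, with 9.37 to 9.55 in DEP and 8.75 to 8.84 in control. The channels did not overlap, and the rise was 1.57-fold (0.65 ± 0.05, SD, n = 4, SE 0.04, limma adjusted p = 4.06e-05). A second *Muc20* probe, for another transcript, was not well above background in either channel at 4 weeks and was not tested. *Muc1* was dim, at 0.12, 0.55, 0.52 and 0.42, with 7.89 to 8.38 in DEP and 7.77 to 7.86 in control. It passed narrowly (1.32-fold, 0.40 ± 0.20, SD, n = 4, limma adjusted p = 0.0397) and did not pass without replicate 2 (adjusted p = 0.122), replicate 3 (0.109) or replicate 4 (0.0983), within a range of 0.0211 to 0.122 over all alternatives.

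The trefoil peptide gene *Tff2* was lower on all 4 arrays, at -0.63, -0.39, -0.27 and -0.32. Its intensity was 13.40 to 13.75 in DEP and 13.97 to 14.03 in control, without overlap, and it fell 1.32-fold (-0.40 ± 0.16, SD, n = 4, SE 0.06, limma adjusted p = 0.00242). *Agr2*, the disulfide isomerase, had ratios of -0.57, -0.30, -0.18 and -0.24 (mean -0.32 ± 0.17, SD, n = 4, limma adjusted p = 0.0308). *Spdef*, the transcription factor, had ratios of -0.42, -0.18, -0.15 and -0.13 (mean -0.22 ± 0.13, SD, n = 4, limma adjusted p = 0.0294). For *Agr2* and *Spdef* the ranges of the DEP and control intensities overlapped, although DEP was lower than the control of the same array on all 4. *Agr2* did not pass without replicate 1 (adjusted p = 0.0978), replicate 2 (0.0757) or replicate 4 (0.0608), within 0.0128 to 0.0978 over its alternatives. *Spdef* did not pass without replicate 1 (adjusted p = 0.0706), replicate 2 (0.0698) or replicate 3 (0.0528), within 0.0136 to 0.37 over its alternatives.

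Replicate 1 gave the lowest 4-week log2 ratio for 7 of the 9 genes, *Muc5ac*, *Muc5b*, *Muc2*, *Muc1*, *Spdef*, *Agr2* and *Tff2*, and the highest for the neighbours *Muc4* and *Muc20*. The number of the 9 genes that changed at 4 weeks was 8, and 5 without replicate 2, where *Muc1*, *Spdef* and *Agr2* no longer passed.

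After 8 weeks 1 of the 9 genes, *Muc20*, was higher in DEP, where 20.3% of all genes were higher, and 4 were lower (*Muc5b*, *Tff2*, *Muc2*, *Spdef*), where 17% of all were lower. At the thresholds of the methods *Muc5b* and *Tff2* were lower, which 0.847% of all genes were. The median of the 9 genes was -0.21, beside 0.01 over all genes tested.

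*Tff2* had the tightest values of all, with log2 ratios of -1.61, -1.64 and -1.67 on replicates 1 to 3 of 8 weeks. Its intensity was 11.12 to 11.34 in DEP and 12.79 to 12.98 in control, so that the channels stood far apart. The mean was -1.64 ± 0.03 (SD, n = 3), a 3.12-fold fall (SE 0.07, limma adjusted p = 4.58e-06), which ranked 37 from the bottom of 20664. *Muc5b* had ratios of -1.30, -1.49 and -1.83, with 13.82 to 14.35 in DEP and 15.64 to 15.65 in control. The channels did not overlap, the control arrays were nearly alike, and the spread lay in the DEP channel. The mean was -1.54 ± 0.27 (SD, n = 3), a 2.90-fold fall (SE 0.10, limma adjusted p = 2.8e-05), which ranked 51 from the bottom.

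*Muc2* was below control at 8 weeks, at -0.38, -0.66 and -0.73, with 8.22 to 8.71 in DEP and 8.95 to 9.23 in control. It fell 1.51-fold (-0.59 ± 0.19, SD, n = 3, SE 0.09, limma adjusted p = 0.00151), and with the methods' t-test on the intensities its adjusted p was 0.0798, within 0.000541 to 0.0798 over its alternatives. *Muc2* alone among the 9 genes was higher at 4 weeks and lower at 8 weeks with both changes past the adjusted p, a pattern that 3.48% of all genes had. *Muc20* stayed higher, at 0.47, 0.43 and 0.40 (1.35-fold, 0.43 ± 0.04, SD, n = 3, limma adjusted p = 0.000491). With median centring in place of loess it was 0.11 at 8 weeks (adjusted p = 0.184), the highest adjusted p over its alternatives, of which the lowest was 0.000211. *Spdef* was at -0.28, -0.17 and -0.40 (-0.28 ± 0.11, SD, n = 3, limma adjusted p = 0.0208), and did not pass without replicate 1 (adjusted p = 0.069) or replicate 3 (0.106), or with the processed signals (0.0856), within 0.00125 to 0.106 over its alternatives, and was at -0.61 with median centring.

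The other 4 genes did not pass at 8 weeks. *Muc4* was at -0.27, -0.18 and -0.12 (mean -0.19 ± 0.08, SD, n = 3, limma adjusted p = 0.0524), below control on all 3 arrays. It passed with median centring (-0.52, adjusted p = 0.000457), with the processed signals (-0.22, adjusted p = 0.0285) and with detection in both channels (adjusted p = 0.0379), among alternatives from 0.000457 to 0.226. *Muc5ac* was at 0.35, 0.04 and -0.20, so that the 3 arrays did not share a sign (95% interval of the mean -0.22 to 0.35, limma adjusted p = 0.736). *Muc1*, at 0.28, -0.23 and -0.54, and *Agr2*, at -0.46, -0.24 and 0.07, did not share a sign either (limma adjusted p = 0.43 and 0.174). With median centring *Agr2* passed at -0.49 (adjusted p = 0.00868), within 0.00868 to 0.644 over its alternatives, and for *Muc1* they gave 0.0622 to 0.934. Replicate 3 had the lowest ratio of 7 of the 9 genes at 8 weeks, and replicate 1 the highest of 6.

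**Figure D2:**
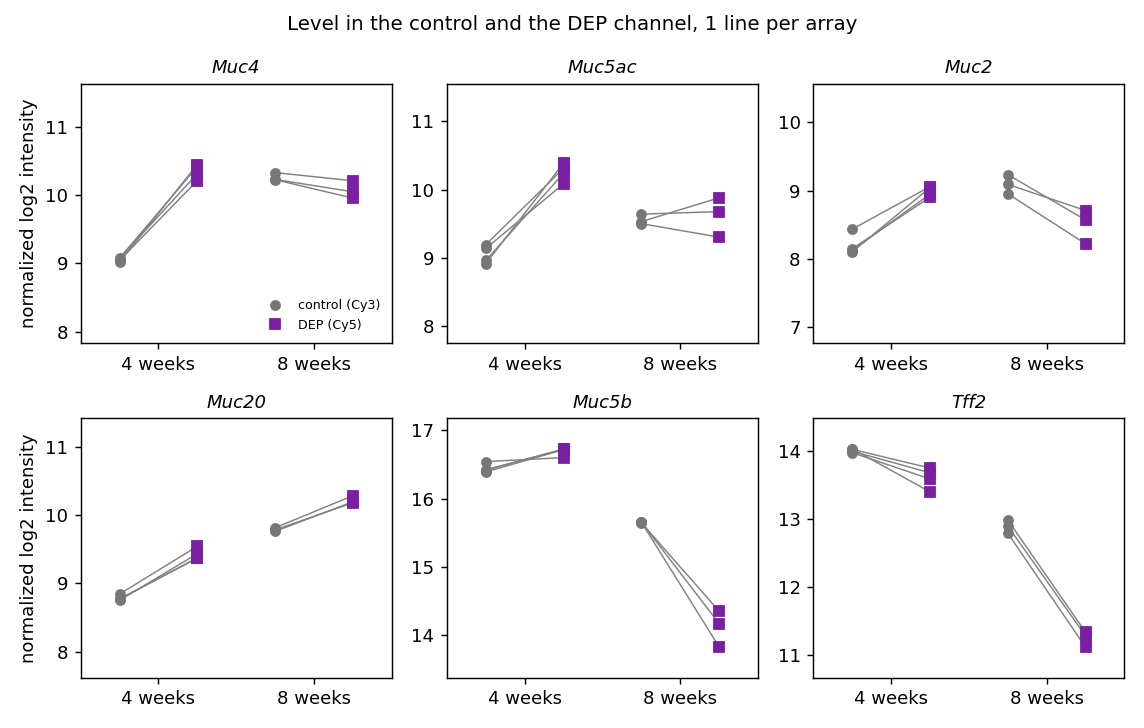
Normalized log2 intensity in the control (Cy3) and the DEP (Cy5) channel for 6 genes, with 1 line per array joining both channels, over axes of equal length that start at different levels. The control values of *Muc4* lie at 9.02 to 9.08 at 4 weeks and at 10.23 to 10.33 at 8 weeks, while its DEP values lie between 9.96 and 10.45 throughout.

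The difference between the exposure times, 8 weeks minus 4 weeks, was tested for all 9 genes. It was below 0 and past the adjusted p for 6 of them (*Muc5b*, *Muc4*, *Muc2*, *Tff2*, *Muc5ac*, *Muc20*), where 16.1% of all genes were lower at 8 weeks. No gene of the 9 was higher at 8 weeks, against 14.9% of all. For *Muc5b*, *Muc4*, *Muc2*, *Tff2* and *Muc5ac* the difference was at least 2-fold with an unadjusted p of at most 0.01, which 1.16% of all genes showed. *Muc5b* differed by -1.79 (SE 0.14, limma adjusted p = 0.000117), *Muc4* by -1.49 (SE 0.09, adjusted p = 3.65e-05) and *Muc2* by -1.38 (SE 0.11, adjusted p = 0.000167). *Tff2* differed by -1.24 (SE 0.10, limma adjusted p = 0.000137) and *Muc5ac* by -1.14 (SE 0.16, adjusted p = 0.002). For these 5 genes no 4-week log2 ratio overlapped with an 8-week one. They were picked by the size of the difference, so this adds no support, and the share over all genes is not given. *Muc20* differed by only -0.21 (limma adjusted p = 0.0452) and lost the call without any 1 of the 7 arrays, with adjusted p between 0.0582 and 0.127.

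*Spdef* (-0.06, 95% interval -0.29 to 0.17), *Agr2* (0.11, -0.22 to 0.45) and *Muc1* (-0.57, -1.02 to -0.12, limma adjusted p = 0.0612) did not pass. *Muc1* passed without replicate 1 of 4 weeks (-0.66, adjusted p = 0.0448) and without replicate 1 of 8 weeks (-0.79, adjusted p = 0.0123), and also with the processed signals (adjusted p = 0.0209) and with detection in both channels (adjusted p = 0.0352), with 0.0123 to 0.187 over its alternatives.

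The channels took different parts in these differences. Average intensities were set to the same distribution over the 7 arrays, but the exposure times lie on separate slides, so their levels are given as a description. From 4 to 8 weeks the *Muc4* level moved by 1.21 in the control channel and by -0.28 in the DEP channel. For *Muc2* the control channel moved by 0.89 and the DEP channel by -0.49, and for *Muc5ac* by 0.50 and -0.64. *Muc20* moved by 1.00 in control and 0.79 in DEP. In these 4 mucins the control level was higher on the 8-week slide. *Muc5b* moved by -2.58 in the DEP channel and -0.79 in control, and *Tff2* by -2.35 and -1.11, so both were lower in both channels on the 8-week slide. *Spdef* (-0.66 in DEP, -0.60 in control) and *Agr2* (-0.57 and -0.68) moved alike in both channels.

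Further mucin genes were looked at in lists. Over all genes tested, 21.6% rose and 16.5% fell at 4 weeks, and 20.3% rose and 17% fell at 8 weeks. The list counts below stand beside these shares. Of 13 other mucins and mucin-like genes, 7 had a named probe and 5 were tested. *Mucl2*, a mucin-like gene, rose most, with log2 ratios from 3.40 to 3.70 at 4 weeks (11.8-fold, SE 0.06, limma adjusted p = 1.11e-07), and at 8 weeks its DEP channel was not well above background on any array. *Muc13*, a membrane mucin of epithelia, followed the sign pattern of *Muc2*, 0.62 at 4 weeks (limma adjusted p = 0.000559) and -0.36 at 8 weeks (adjusted p = 0.012, and -0.65 with median centring). *Emcn*, an endothelial sialomucin, had the lowest 4-week ratio of the list (-0.35, limma adjusted p = 0.0171), but its control channel was well above background on 1 of 4 arrays, and the call was lost with normexp on all spots (-0.28, adjusted p = 0.0787) and with the processed signals (-0.58, adjusted p = 0.13), and *Cd164* was at -0.31. *Ovgp1* did not pass at either time (0.24 and -0.31). At 8 weeks the 5 genes ranged from -0.36 to -0.11, with *Muc13* past the adjusted p.

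Of 14 other products of goblet cells, 8 were tested, of which 5 rose and 1 fell at 4 weeks (median 0.36), and 3 rose and 2 fell at 8 weeks (median 0.06, and -0.18 with median centring). *Tff1*, a second trefoil peptide, was at 0.60 and then -0.20 (limma adjusted p = 6.15e-05 and 0.02). *Fcgbp*, a mucus protein that binds the IgG Fc part, was at 0.58 and 0.06, with the first past the test. *Bpifb1*, a secreted antimicrobial protein, had the highest 4-week ratio of the list (0.70, limma adjusted p = 0.00121), and *Itln1*, an intelectin, the highest 8-week ratio (0.53, adjusted p = 0.000544). *Spink4*, a protease inhibitor of goblet cells, had the lowest at both times (-0.23 and -0.85, limma adjusted p = 0.00577 and 1.71e-05). The processed signals gave -0.24 (adjusted p = 0.124) and -1.91 for *Spink4* and 0.90 for *Itln1* at 8 weeks. For *Tff1* at 8 weeks median centring gave -0.49, and with normexp on all spots it did not pass (-0.20, limma adjusted p = 0.0905). *Clca1*, *Clca2*, *Tff3*, *Zg16*, *Retnlb* and *Capn9* had probes that were too dim to be tested.

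**Figure D3:**
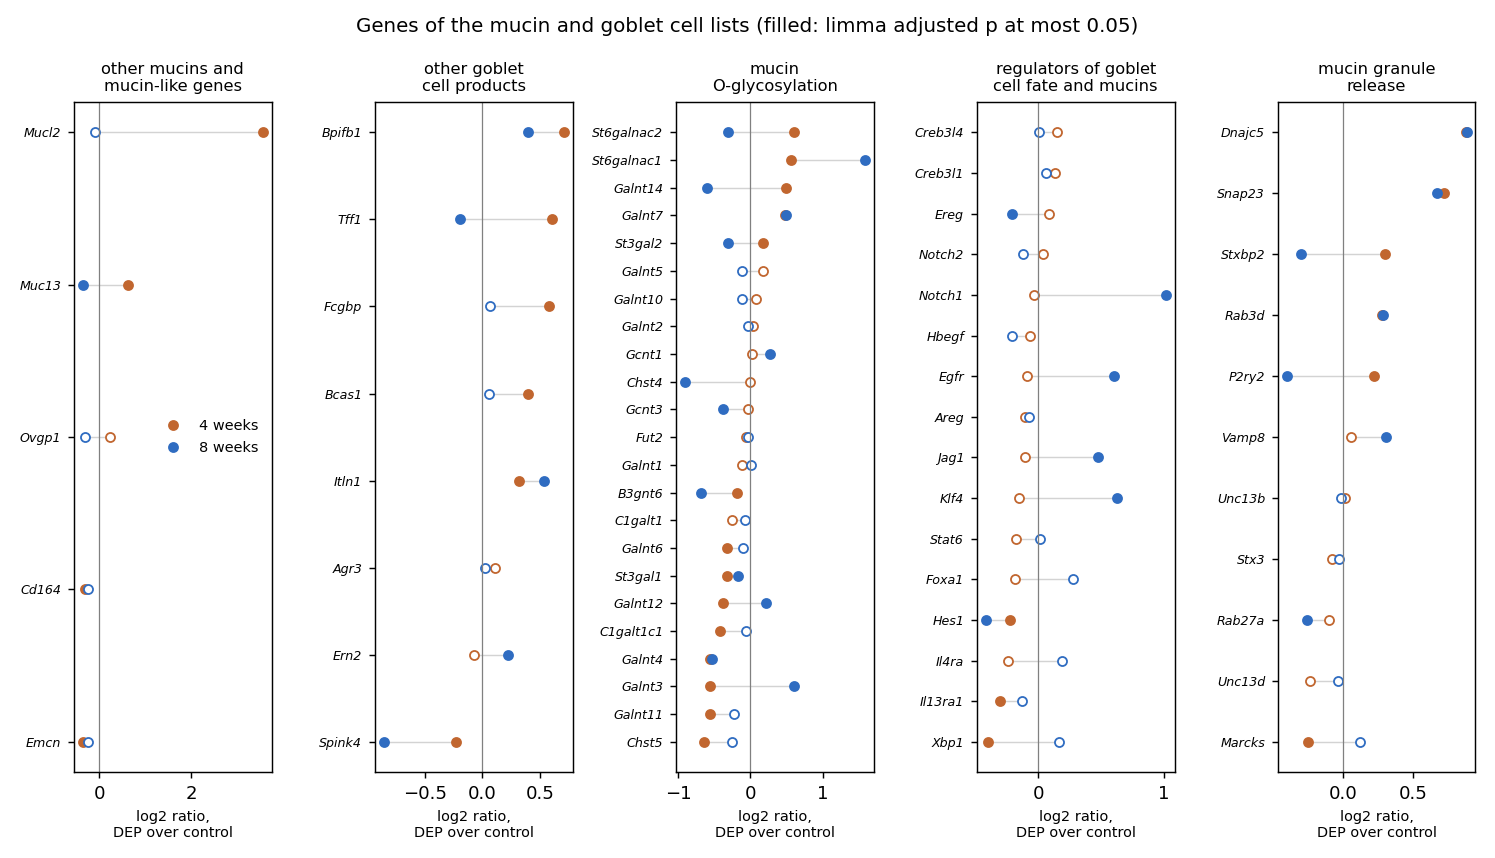
Mean log2 ratio at 4 weeks and 8 weeks for the tested genes of 5 lists, with 1 gene of the granule release list not shown, on an axis of its own for each list, filled where limma's adjusted p was at most 0.05. *Mucl2* reaches 3.56 at 4 weeks and *St6galnac1* 1.58 at 8 weeks.

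Mucins are modified by O-glycosylation, of which 23 of 26 listed enzymes were tested, and 5 rose and 9 fell at 4 weeks (median -0.06) and 5 rose and 8 fell at 8 weeks (median -0.11). With median centring 1 rose and 13 fell at 8 weeks. *St6galnac1*, which adds sialic acid to the first sugar of the O-glycan, was the only one past 2-fold, with 1.52 to 1.63 at 8 weeks (2.98-fold, SE 0.05, limma adjusted p = 1.83e-06) after 0.56 at 4 weeks (adjusted p = 9.81e-05). Its relative *St6galnac2* was the highest at 4 weeks (0.61, limma adjusted p = 8.93e-05) and was at -0.31 at 8 weeks. The sulfotransferase genes *Chst5* (-0.64 at 4 weeks, limma adjusted p = 0.000485) and *Chst4* (-0.91 at 8 weeks, adjusted p = 6.72e-05) had the lowest ratios. At 8 weeks *Chst4* was at -2.01 with the processed signals, and *St6galnac2* at -0.64 with median centring.

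Of the regulators of goblet cell fate and mucin expression, 0 of 16 tested rose and 3 fell at 4 weeks (median -0.11). Over all genes 21.6% rose and 16.5% fell. The lowest was *Xbp1*, a factor of the unfolded protein response (-0.40, limma adjusted p = 0.0319), and the highest *Creb3l4* (0.15, not past the test). At 8 weeks 4 rose and 2 fell, and 3 rose and 4 fell with median centring. *Notch1*, the receptor through which airway cells are steered between fates, was 2.02-fold higher (1.01, 3 of 3 arrays, limma adjusted p = 0.00575), and its target *Hes1* was the lowest (-0.42, adjusted p = 0.00336). With the processed signals they were at 1.63 and -0.71. *Notch1* was below 2-fold with median centring (0.88) and with normexp on all spots (0.95). The cytokine genes *Il4* and *Il13* and the factors *Foxa2*, *Foxa3* and *Nkx2-1* had probes that were too dim to be tested, as were those of 3 more of the 24 listed. Of 12 tested genes for the release of mucin granules, 6 rose and 1 fell at 4 weeks (median 0.14), and 4 rose and 4 fell at 8 weeks (median -0.02, and 2 rose and 6 fell with median centring). *Dnajc5*, a chaperone of secretory vesicles, was the highest at both times (0.88 and 0.88, limma adjusted p = 0.000131 and 0.000219), and *Marcks* the lowest at 4 weeks (-0.25, adjusted p = 0.0189).

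Markers of the cell types in the dissected tissue moved beside the mucins. Of 9 listed markers of gland acini 8 were tested, and whether nasal or salivary glands gave their signal was not tested. The 8 markers summed to 74561 to 87077 normalized intensity units in DEP and 48460 to 50732 in control at 4 weeks. This sum was higher in DEP although 3 markers rose and 4 fell (median -0.18), with *Pip* alone past 2-fold. At 8 weeks 2 rose and 5 fell, and the sum was 21964 to 22547 in DEP and 57644 to 64618 in control, a ratio of 0.345 to 0.391 on single arrays. The salivary amylase *Amy1* was at -4.90, *Bpifa2* at -4.05, *Smgc* at -1.26 and *Dcpp2* at -1.13 at 8 weeks, *Dcpp1* was 3.99-fold lower, while *Bhlha15*, a factor of secretory cells, was at 0.73 and *Pip* at 2.08 at 4 weeks and 0.34 at 8 weeks. With median centring *Pip* was at 0.12 at 8 weeks and did not pass (adjusted p = 0.364). All 8 but *Aqp5* passed the test at 8 weeks, and all 8 but *Amy1* at 4 weeks. *Muc5b* and *Tff2* were low on the arrays where most acinar secretory markers were low. The part of gland tissue of either kind in the fall of *Muc5b* and *Tff2* was not tested. At 4 weeks *Muc5b* was at 0.25 and *Tff2* at -0.40, while the acinar markers ranged from *Bpifa2* at -0.63 to *Pip* at 2.08.

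**Figure D4:**
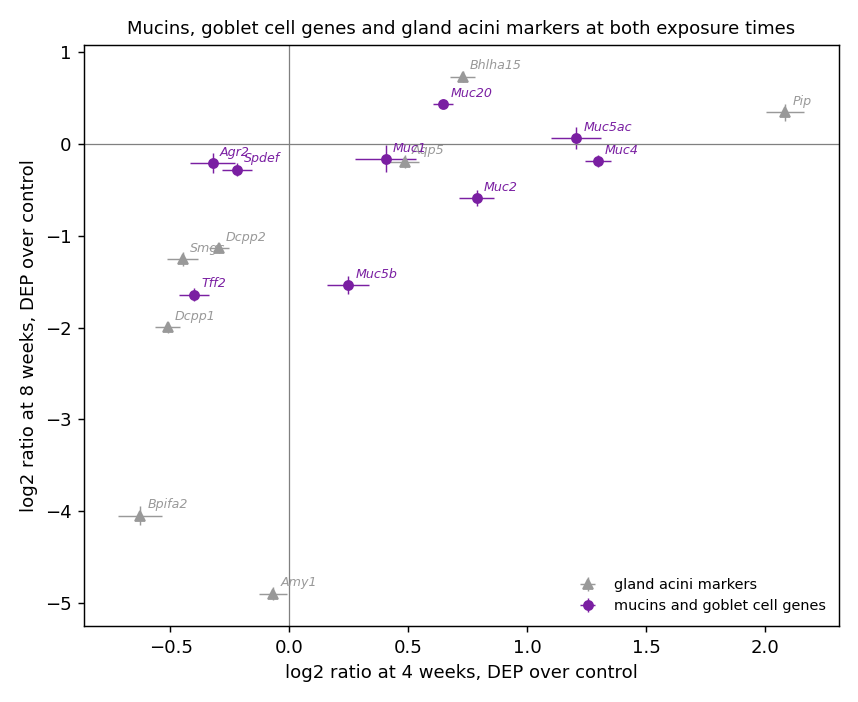
Mean log2 ratio at 4 weeks (horizontal) against 8 weeks (vertical) for the 9 mucin and goblet cell genes and 8 markers of gland acini, with bars of 1 SE. *Tff2* and *Muc5b* lie at -1.64 and -1.54 on the vertical axis among *Dcpp1*, *Smgc* and *Dcpp2*, and *Muc4* and *Muc5ac* lie to the right at 1.30 and 1.20.

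Other cell types moved as well. Mature olfactory neurons, a cell type particular to the nasal cavity, were detected by 6 of 6 markers in both channels of all arrays. Of these markers 4 rose at 4 weeks and 6 fell at 8 weeks. The ratio of their sums was 1.63 to 1.86 and then 0.635 to 0.759, the same order in time as *Muc2*. *Muc4* also rose at 4 weeks, but its value below control at 8 weeks did not pass. Ciliated cells, the neighbours of goblet cells, had 5 of 6 markers tested, with 3 higher at 4 weeks, 2 higher at 8 weeks and ratios of sums of 1.11 to 1.25 over both times. Club cells had 3 of 4 tested, with 1 higher (*Cyp2f2*, 0.56) and 2 lower at 4 weeks and none past the test at 8 weeks. Basal cells (4 of 4 tested) had 2 higher and 1 lower at 4 weeks, and 3 higher at 8 weeks, and sustentacular cells (3 of 4) had 2 higher at 4 weeks, and 1 higher and 2 lower at 8 weeks. Squamous epithelium (7 of 7) had 7 lower at 4 weeks, and 5 lower and 1 higher at 8 weeks. With median centring, ciliated cells had 1 higher and 2 lower at 8 weeks, and basal cells 2 higher. Club cells then had 1 lower at 8 weeks, and squamous epithelium 5 lower and 0 higher. At 4 weeks that centring left 3 olfactory neuron markers and 1 sustentacular marker higher, and 1 club cell marker higher and 1 lower. Of the 5 neutrophil markers 4 were lower and *Csf3r* was higher at both times. The 3 tooth markers were lower at 4 weeks (sum ratios 0.306 to 0.337) and higher at 8 weeks (1.70 to 2.25), and of 3 skeletal muscle markers 1 was lower at 4 weeks, and 2 were lower and 1 higher at 8 weeks. All 3 markers of tooth and all 3 of muscle were well above background in both channels of every array, and the part of the tissue make-up in the mucin values was not tested.

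Genes with the most similar values to the strongly changed mucins were found by the root mean square difference of the log2 ratios over the 7 arrays, among 15493 gene symbols. For *Muc4* they were *Kcnj5* (0.17), *Carns1* (0.18), *Gm12887* (0.20), *Rgs11* (0.26) and *Ttll3* (0.26), and for *Muc5ac* *Ebf4* (0.13), *Rgs11* (0.19), *Ttll6* (0.21), *Ttll3* (0.24) and *Gh* (0.25). *Rgs11* and *Ttll3* were near to both. For *Muc5b* they were *Mbd1* (0.20), *Vnn1* (0.27), *Wdr92* (0.28), *Pigz* (0.30) and *Cers4* (0.30). For *Tff2* they were *Gp2* (0.09), *Aox4* (0.11), *Paqr7* (0.13), *Plin2* (0.13) and *Adipor2* (0.14). None of the 9 mucin and goblet cell genes tested was among the 5 nearest of *Muc4*, *Muc5ac*, *Muc5b* or *Tff2*.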

How the data were processed

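RNA of nasal tissue from DEP-exposed (Cy5) and control (Cy3) mice was measured on 7 2-colour arrays. The authors deposited the output of Feature Extraction 10.10.1.1 per array: median signals and backgrounds, which are raw intensity values, processed intensity values that the software background-subtracted and dye-normalized, and their log10 ratio. The study's own normalization was not repeated. With limma 3.58.1 in R 4.3.3, background was corrected by normexp (offset 50), fitted without spots marked as background outliers and applied to all spots. Log2 ratios were normalized by loess within arrays, and average intensities by quantiles between arrays for levels per channel. Non-uniform spots were dropped, and spots of 1 probe averaged. Tested probes (25162 of 39429) were well above background on 3 or more of the 7 arrays in at least 1 channel, and the brightest tested probe stood for a gene. Per array, 18601 to 25069 probes passed this mark for DEP and 16985 to 26927 for control, and none was saturated. The number of arrays limits the precision. Probes were named through RefSeq accessions (28330 probes).

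Groups were taken from the sample labels, and a linear model of all 7 arrays had 1 mean for each exposure time, from which the difference was drawn. Only the fit of this model was tested on simulated log2 ratios, and only for the mean of the shorter exposure time. Background correction, normalization, the choice of probes and the difference between exposure times were not tested in this way. The alternatives were normexp on all spots, the processed signals, median centring, no filter on dim probes, detection in both channels on all arrays, non-uniform spots kept, the mean of a gene's probes, a fit per exposure time, the methods' t-test on the channel intensities, each array left out, and the replicate number as a block. The mucins and goblet cell genes, the lists of 5 pathways and 10 cell types and the tests were chosen with earlier results of these data known. Named from the pathway lists were genes past the adjusted p with a 2-fold change. The highest and lowest of each pathway list at each time were also named. Cell type markers past the same thresholds were named only in part. Other list genes, the single cell type markers among them, and the genes named for lacking a bright probe were chosen after their values were seen. The 5 nearest genes were taken for members changed 2-fold at either time. One gene of the granule release list is not reported here, but is in that list's counts.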

Additional observations from a re-analysis of the deposited data

Results flagged for a closer look

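The log2 ratio of DEP over control differed between the exposure times, by limma's test of the difference with its adjustment over all probes, for 6 genes. The 8-week value minus the 4-week value was -1.79 for *Muc5b*, -1.49 for *Muc4*, -1.38 for *Muc2*, -1.24 for *Tff2*, -1.14 for *Muc5ac* and -0.21 for *Muc20*. The slide changed with the exposure time, and its part cannot be told apart. On the 4-week arrays, replicate 1 stood apart for *Muc5b*, at a log2 ratio of 0.0591 beside 0.30 to 0.33 on the others. It was the only one of the 9 genes with such an array in the group of 4, and about 1 group in 20 is expected to show one by chance.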

How the results depend on the processing

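Over the alternatives, 309 values of single genes kept their direction and their side of the adjusted p. Of the others 34 no longer passed, 12 newly passed and 5 changed sign. *Muc4*, *Muc5ac*, *Muc2*, *Muc20* and *Tff2* at 4 weeks, *Muc5b* and *Tff2* at 8 weeks, and the differences of *Muc5b*, *Muc4*, *Muc2*, *Tff2* and *Muc5ac* between times kept both under every setting run. The 5 sign changes were in values that did not pass: with median centring, *Muc5ac* at 8 weeks was -0.25 and the difference of *Agr2* -0.0748. With 1 array left out, *Muc5ac* at 8 weeks ranged from -0.0805 to 0.19, *Muc1* at 8 weeks from -0.38 to 0.0224, and the difference of *Agr2* from -0.0271 to 0.24. The number of the 9 genes changed at 4 weeks was 8, and 5 to 7 with 1 array left out. At 8 weeks it was 5, and 3 with the methods' t-test, where *Muc2* and *Spdef* did not pass. The cause was not tested. Over all genes, 7878 passed at 4 weeks, and 5042 with normexp on all spots and 4336 with the methods' t-test. At 8 weeks 7708 passed, against 4815 with that t-test and 4464 without replicate 2. Median centring moved the median of an array by -0.19 to 0.02 and the processed signals by -0.01 to 0.15. The share of higher genes among those changed was 56.7% at 4 weeks and 54.6% at 8 weeks, and 42.5% and 27% with that centring. With the processed signals it was 67.8% at 4 weeks. For the difference between times it was 48.1%, against 28.9% with centring and 35.6% with the processed signals.

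The replicate numbers were not taken to pair the samples. The correlation of same-numbered arrays, as deviations from their group means, was -0.01, -0.01 and 0.02. This cannot decide whether they pair, since the spread between single arrays may be technical. With the replicate block 5 of the 9 genes differed between the times, not 6, as *Muc20* did not pass, and 3203 of all genes passed, not 6388. Without replicate 2 of 8 weeks 3876 passed. Dim probes limit *Muc1* and the second probes of *Muc4* and *Muc20*.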
